A study of Saccharomyces cerevisiae with 8 samples.

Results

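RPF abundance was compared between ODIRA_A and ODIRA_B, a pair of evolved budding yeast strains whose CNVs at the GAP1 locus arose by the same mechanism but have different ends. The comparison rests on 4 of the 8 libraries of the series, the 2 of strain DGY1735 (ODIRA_A) and the 2 of strain DGY1743 (ODIRA_B). The other 4 libraries belong to the strains Trans and ComQuad, which entered the same fit and are given for reference. RPFs, the ribosome protected fragments, are the stretches of mRNA that a translating ribosome shields from nuclease, so a count of RPFs on a gene follows both its mRNA level and how heavily that mRNA is loaded. Neither RNA-seq nor protein data nor ancestral libraries were analysed here. The mRNA level and the translation per mRNA therefore cannot be told apart, nor can it be said which of the strains had changed. In such bulk cultures a smaller share of cells with a transcript and less of it in each cell cannot be told apart either.

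Both strains descend from FY4, an S288C derivative, and both carry a fluorescent reporter with a KanMX cassette next to GAP1. Each was a single clone picked from a population evolved in glutamine-limited chemostats, ODIRA_A after about 150 generations and ODIRA_B after about 250 generations, so the time of isolation and the strain cannot be told apart. For the libraries each strain was regrown in 2 glutamine-limited chemostats and harvested with cycloheximide, which halts elongating cytosolic ribosomes. The study's variant list gives a missense variant in RTT107 in ODIRA_A and one in YNL017C in ODIRA_B. RPFs of RTT107 did not differ (41.1 and 45.2 CPM in ODIRA_A, 48.6 and 54.8 CPM in ODIRA_B, log2 difference -0.26, BH adj. P-value 0.30), and YNL017C had too few RPFs to be tested. CPM stands for edgeR's RPF counts scaled to library size by TMM, and every log2 difference is ODIRA_A over ODIRA_B.

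ODIRA, origin-dependent inverted-repeat amplification, is thought to begin when replication forks on both sides of an origin switch strands at short inverted repeats, and it leaves a triplication whose middle copy is inverted. GAP1 encodes the general amino acid permease, which also takes up glutamine and is selected in amplified form when glutamine limits growth. The copies carry along the neighbouring genes, and it is these neighbours in which the 2 alleles differ. On chromosome XI of the R64 assembly the ODIRA_B triplication begins further left, at VPS1, with a breakpoint within the centromere CEN11, and ends between ESL2 and PCK1. The ODIRA_A triplication begins inside ALY1 and ends inside SIR1. Genes from VPS1 to VPS51 (440608 to 478832) therefore have 1 copy in ODIRA_A and 3 in ODIRA_B, genes up to ESL2 (482171 to 630380) have 3 copies in both, and genes from PCK1 to SKG1 (631152 to 639968) have 3 copies in ODIRA_A and 1 in ODIRA_B.

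The 2 ends of the ODIRA_B triplication are shown as reference sequence (R64, RefSeq genome), not as read from the evolved strain. The first is CEN11 (chr11:440129-440246, minus strand), with the outer centromere elements CDEI and CDEIII in capitals. The second is the window from 250 bases before to 50 bases after the start codon of PCK1 (chr11:630902-631201, plus strand), which begins in the interval that holds the right breakpoint and has the reverse complement of AGGGG, inside the coding sequence, in capitals.
CEN11: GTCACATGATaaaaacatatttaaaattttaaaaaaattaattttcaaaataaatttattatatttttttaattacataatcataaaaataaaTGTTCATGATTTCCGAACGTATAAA
PCK1: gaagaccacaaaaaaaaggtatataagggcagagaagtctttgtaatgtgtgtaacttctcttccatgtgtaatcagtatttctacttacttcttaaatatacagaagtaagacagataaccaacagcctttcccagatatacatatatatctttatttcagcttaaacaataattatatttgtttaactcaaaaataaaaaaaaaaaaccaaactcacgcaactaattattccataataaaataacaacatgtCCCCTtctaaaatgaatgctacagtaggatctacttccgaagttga

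In all, 1280 of 5725 tested genes (22.4%) differed between the strains (edgeR's quasi-likelihood test, BH adj. P-value under 0.05). RPF abundance was higher in ODIRA_A for 572 genes (9.99% of those tested) and lower for 708 (12.4%). At least 2-fold differences numbered 143 higher and 269 lower, and at least 4-fold differences 13 higher and 82 lower. The counts depended on each library: 379 higher and 541 lower without ODIRA_A replicate 1, 275 and 409 without ODIRA_A replicate 2, 221 and 388 without ODIRA_B replicate 1, and 168 and 344 without ODIRA_B replicate 2. A core of 125 higher and 307 lower genes passed in all 4 of these fits. Each of them leaves 1 library in a strain, which is then assumed to vary as the libraries of the other strains do. The libraries held 7847392 and 8842034 RPFs on CDS in ODIRA_A and 3923583 and 3723082 in ODIRA_B, so genes with few RPFs are less precisely measured in ODIRA_B. The log2 ratio of the 2 replicates had an SD across genes of 0.295 in ODIRA_A and 0.243 in ODIRA_B. The replicates are separate chemostats of 1 clone each, so the P-values measure the spread between cultures and not between independently evolved lineages.

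Within the segment amplified only in ODIRA_B, RPFs followed the copy number. Of its 20 genes 18 could be tested, and 18 of 18 were lower in ODIRA_A, with a median log2 difference of -1.62 against the -1.585 of 1 copy over 3. The range ran from -1.96 to -1.11. The 95% interval of the difference held the copy ratio for 13 genes, lay below it for 2 and above it for 3. VPS1, a dynamin-like GTPase of vacuolar protein sorting, had the largest fall, with 283 and 298 CPM in ODIRA_A against 1099 and 1165 CPM in ODIRA_B (log2 difference -1.96, standard error 0.13, BH adj. P-value 3.8e-06). IRS4, a protein of phosphoinositide regulation, had 20.3 and 20.6 CPM in ODIRA_A and 75.2 and 80.5 CPM in ODIRA_B (-1.93). For VPS1 and IRS4 the libraries of ODIRA_A lay further below those of ODIRA_B than the copy ratio alone.

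The 3 genes above the copy ratio were MRPL13, HEL1 and YKR018C. MRPL13, a protein of the large mitochondrial ribosomal subunit, had 55.6 and 63.2 CPM in ODIRA_A and 136 and 120.4 CPM in ODIRA_B (-1.11, 95% interval -1.43 to -0.79). HEL1, a ubiquitin ligase that acts on excess histones, had 49.2 and 52.3 CPM in ODIRA_A and 112 and 119.6 CPM in ODIRA_B (-1.19). YKR018C, of unknown function, had 259 and 269 CPM in ODIRA_A and 662 and 602 CPM in ODIRA_B (-1.26). No library of one strain overlapped those of the other in these 3 genes, which also held for every call outside the CNV (559 of 559 higher, 654 of 654 lower). Called genes are selected for such a separation, so it adds nothing to the calls. The share without overlap over all tested genes was not computed. To the left of the segment, MET14, the first gene across the centromere, had 440.2 and 393 CPM in ODIRA_A and 430.1 and 418 CPM in ODIRA_B (-0.03, BH adj. P-value 0.91). To its right ALY1, an arrestin-like adaptor for permease endocytosis that is cut by the ODIRA_A breakpoint, had 131 and 138 CPM in ODIRA_A and 265 and 303 CPM in ODIRA_B (-1.08, BH adj. P-value 3.3e-03), an intermediate value.

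Several of these genes encode single subunits of larger assemblies, and in 5 of 6 such assemblies at most 1 partner, encoded outside the CNV, was called. In the sixth, the mitochondrial ribosome of MRPL13 (-1.11), 10 of 71 partners were higher and 0 lower (median 0.22). RSC4, a bromodomain subunit of the RSC chromatin remodeller, had 67.2 and 78.3 CPM in ODIRA_A and 241 and 267 CPM in ODIRA_B (-1.80). The 16 tested RSC partners had a median of 0.07, with 0 higher and 1 lower. VPS51 of the GARP tethering complex differed by -1.84 (40.9 and 44.2 CPM in ODIRA_A, 144 and 161 CPM in ODIRA_B), and its 3 partners had a median of 0.12 with none called. MEH1 anchors the EGO complex, and through it the TORC1 kinase, at the vacuole. It had 71.0 and 71.4 CPM in ODIRA_A and 219 and 215 CPM in ODIRA_B (-1.61), beside a median of -0.10 over 18 TORC1 and EGO partners (0 higher, 1 lower). MIC60, the organizer of mitochondrial cristae, had 74.1 and 67.0 CPM in ODIRA_A and 221 and 217 CPM in ODIRA_B (-1.63), and PAP1, the nuclear poly(A) polymerase, had 50 and 54.6 CPM in ODIRA_A and 166 and 169 CPM in ODIRA_B (-1.68). The median was 0.12 over 5 MICOS partners (1 higher, 0 lower) and -0.10 over 14 partners in the cleavage and polyadenylation factor (0 called). The RSC partner lower, RSC2 (-0.47), and the MICOS partner higher, MIC12 (0.58), did not pass with any library left out, and TCO89 of TORC1 (-0.65) did not without ODIRA_B replicate 2 (BH adj. P-value 0.064).

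At the other end, all 4 genes amplified only in ODIRA_A were higher there, with a median log2 difference of 1.29 and a range from 0.95 to 3.83. Without SKG1, which lies beside the breakpoint, the median is that of BAS1 (1.57). BAS1, a Myb-type activator of purine and histidine genes, was the one gene whose interval held the copy ratio of 1.585, with 177 and 177 CPM in ODIRA_A and 54.7 and 64.3 CPM in ODIRA_B (1.57, standard error 0.13, BH adj. P-value 2.5e-05). PCK1, the phosphoenolpyruvate carboxykinase of gluconeogenesis, had 1237 and 996 CPM in ODIRA_A against 83.2 and 73.5 CPM in ODIRA_B, a 14.2-fold difference (3.83, 95% interval 3.37 to 4.30, BH adj. P-value 1.8e-06). Both libraries of Trans (332 and 489.9 CPM) and both of ComQuad (31.0 and 29.4 CPM) also differed in PCK1, so its RPF abundance ranged widely among the 4 strains. These values are not at equal copy number. The ComQuad CNV ends at TRK2 and leaves PCK1 out, and the copy number of PCK1 in Trans was not examined. UBP11, a ubiquitin protease (0.95), and SKG1, a membrane protein of the cell wall (1.02), lay below the copy ratio. UBP11 had 78.7 and 74.3 CPM in ODIRA_A and 34.1 and 45.0 CPM in ODIRA_B, and its call was lost without ODIRA_B replicate 1 (BH adj. P-value 0.052). SKG1 had 201 and 230.0 CPM in ODIRA_A and 109.9 and 103 CPM in ODIRA_B. Next to them SIR1, the silencing factor cut by the ODIRA_A breakpoint, had 52.0 and 43.9 CPM in ODIRA_A and 26.9 and 29.6 CPM in ODIRA_B (0.76, BH adj. P-value 5.1e-03, and 0.057 without ODIRA_B replicate 1).

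**Figure D1:**
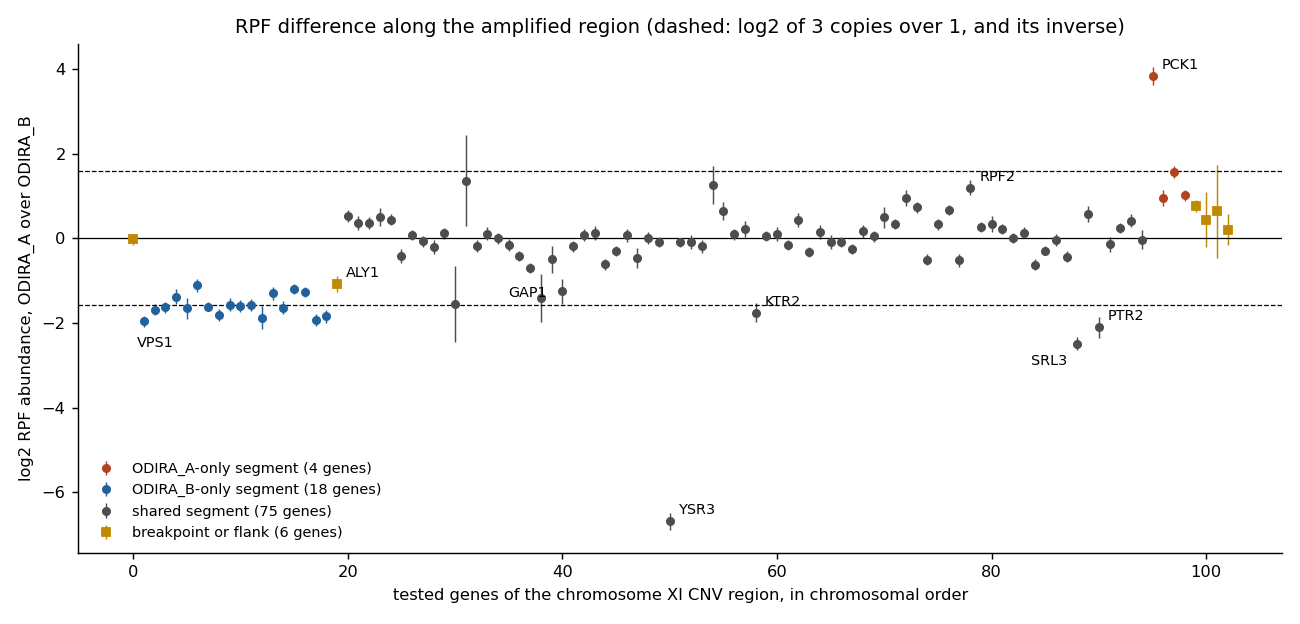
Log2 RPF difference (ODIRA_A over ODIRA_B) of each tested gene of the chromosome XI CNV region in chromosomal order, with bars of 1 standard error and dashed lines at the log2 copy ratio of 1.585 and its inverse. The 18 blue genes amplified only in ODIRA_B lie around the lower dashed line, the 75 genes of the shared segment centre on 0 with YSR3 at -6.68, and the 4 red genes amplified only in ODIRA_A lie above 0.

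BAS1 is a transcription factor, so its known targets were examined. Of 11 genes of purine synthesis, 0 were higher in ODIRA_A and 1 was lower (ADE3, -0.65), with a median of -0.14. Over all tested genes 9.99% were higher and 12.4% lower. TGACTC, the core that both Bas1 and Gcn4 bind, is in 8 of the 11 promoters, against 8.2% of all 6571 promoters. Whether the copy number of BAS1 bears on these genes was not tested. ADE3 makes one-carbon folates and lost its call without ODIRA_B replicate 1 (BH adj. P-value 0.057). Of 7 histidine genes 0 were higher and 2 lower, with a median of -0.01, and the number lower was 0 without ODIRA_A replicate 2 or either ODIRA_B replicate. Genes of one-carbon metabolism and glycine cleavage, of which 6 of 8 promoters hold TGACTC, had 0 higher and 6 lower and a median of -0.64. GCV1, a subunit of the glycine decarboxylase, had 145 and 151 CPM in ODIRA_A and 364 and 340.4 CPM in ODIRA_B (-1.25, BH adj. P-value 1.7e-04). GCV3 (-0.91), GCV2 (-0.76), SHM2 (-0.67), SHM1 (-0.60) and MTD1 (-0.52) were the other members called. The count of 6 dropped to 3 without ODIRA_A replicate 2, ODIRA_B replicate 1 or ODIRA_B replicate 2. IMD2, an IMP dehydrogenase of guanine nucleotide synthesis, had 110.3 and 94.7 CPM in ODIRA_A and 249.7 and 234 CPM in ODIRA_B (-1.24), and near-identical copies of this gene may share its reads. The 3 other genes of its list, IMD3 (0.35), IMD4 (0.42) and GUA1 (0.30), were not called.

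The promoter windows of GCV1 (called) and ADE1 (not called, -0.25) show that TGACTC stands upstream of both. The CCAAT match lies upstream of the ATG in GCV1 and inside the coding sequence in ADE1. Windows are R64 reference sequence from 250 bases before to 50 after the ATG, with TGACTC and CCAAT on either strand in capitals. GCV1 lies at chr4:485316-485615 (minus strand) and ADE1 at chr1:169125-169424 (plus strand).
GCV1: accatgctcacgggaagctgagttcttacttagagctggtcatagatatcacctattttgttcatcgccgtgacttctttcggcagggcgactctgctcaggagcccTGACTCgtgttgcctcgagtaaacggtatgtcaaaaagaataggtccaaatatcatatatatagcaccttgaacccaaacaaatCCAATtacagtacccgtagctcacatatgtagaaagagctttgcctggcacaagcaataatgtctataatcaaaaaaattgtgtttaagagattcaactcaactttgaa
ADE1: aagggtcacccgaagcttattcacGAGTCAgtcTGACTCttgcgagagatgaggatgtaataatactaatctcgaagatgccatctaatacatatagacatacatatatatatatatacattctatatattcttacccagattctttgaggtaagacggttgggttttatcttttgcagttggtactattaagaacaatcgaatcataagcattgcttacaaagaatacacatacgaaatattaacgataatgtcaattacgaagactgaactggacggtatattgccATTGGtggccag

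In the segment amplified in both strains, where copy number is equal, 75 of 78 genes were tested. Their median log2 difference was 0.006, 56 were not called, 7 were higher in ODIRA_A and 12 lower, shares of 9.33% and 16% against 9.99% and 12.4% over all tested genes. Without ODIRA_B replicate 1 the calls were 2 higher and 6 lower, without ODIRA_B replicate 2 they were 3 and 5, and without ODIRA_A replicate 2 the lower calls were 6. YSR3, a phosphatase of sphingoid base phosphates in the endoplasmic reticulum, stood far outside the rest. It had 4.21 and 3.92 CPM in ODIRA_A (33 and 37 RPFs) against 375 and 463 CPM in ODIRA_B (1351 and 1656 RPFs), a 103-fold difference (-6.68, standard error 0.19, BH adj. P-value 2.2e-08). Trans had 8.48 and 7.18 CPM and ComQuad, whose CNV ends at TRK2 to the left of YSR3, 14.5 and 12 CPM. Only the 2 libraries of ODIRA_B were therefore high. The tested genes on either side, MRS4 (-0.09) and DYN1 (-0.09), were not called. The reference promoter window of YSR3 (chr11:535232-535531, minus strand) has, of the 5 motifs searched, only CCAAT on the reverse strand inside the coding sequence, in capitals.
YSR3: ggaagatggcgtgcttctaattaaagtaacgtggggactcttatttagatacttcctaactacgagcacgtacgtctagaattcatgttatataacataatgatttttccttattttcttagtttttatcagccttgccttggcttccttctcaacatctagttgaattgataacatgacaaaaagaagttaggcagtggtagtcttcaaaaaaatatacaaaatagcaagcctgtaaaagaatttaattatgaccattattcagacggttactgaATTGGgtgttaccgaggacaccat

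Of the other shared genes, SRL3, an inhibitor of the G1 to S transition, had 29.7 and 35.3 CPM in ODIRA_A and 176 and 189 CPM in ODIRA_B (-2.48, BH adj. P-value 2.1e-06). PTR2, the transporter of di- and tripeptides, had 31.9 and 30.7 CPM in ODIRA_A and 112 and 157 CPM in ODIRA_B (-2.10). KTR2, a mannosyltransferase of the Golgi, had 22.6 and 17.6 CPM in ODIRA_A and 69.9 and 65.7 CPM in ODIRA_B (-1.76). All 3 fell by more than 3 fold at equal copy number. UTH1, a cell wall protein of the SUN family, had 459.9 and 214 CPM in ODIRA_A, which differed from each other, and 785 and 819.6 CPM in ODIRA_B (-1.25), and did not pass without ODIRA_B replicate 1 (BH adj. P-value 0.055) or ODIRA_B replicate 2 (0.072), nor with only the 4 libraries of the pair (0.18).

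GAP1 itself, at 3 copies in both strains, was lower in ODIRA_A. It had 8814 and 7797 CPM in ODIRA_A and 13515 and 13483 CPM in ODIRA_B (-0.70, standard error 0.13, BH adj. P-value 3.4e-03). DAL80, a GATA repressor of nitrogen genes in the same segment, had 913 and 899 CPM in ODIRA_A and 1046 and 1008 CPM in ODIRA_B (-0.18, BH adj. P-value 0.42). On the other side RPF2, an assembly factor of the large ribosomal subunit, had 399.9 and 347 CPM in ODIRA_A and 165 and 161 CPM in ODIRA_B (1.19, BH adj. P-value 9.9e-04). TRZ1, the endonuclease that trims tRNA 3′ ends, had 127 and 139.6 CPM in ODIRA_A and 84.4 and 83.3 CPM in ODIRA_B (0.67). SRP40 (0.57), NTR2 (0.53), GCN3 (0.44), YKR075C (0.95) and ECM4 (0.73) were the other genes higher, and PLN1, OMA1, MTD1, MSA2, KAE1 and PXL1 were lower by 0.41 to 0.62 on the log2 scale. Each of these 11 genes lost its call with at least 1 library left out, with a highest BH adj. P-value of 0.059 for YKR075C and 0.051 for ECM4, 0.14 to 0.32 for GCN3, NTR2 and SRP40, and 0.072 to 0.34 for the 6 lower genes. SRP40 also lost it with a replicate block (0.058).

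Nearly all tested genes (5593 of 5725) lie outside the CNV, and so did most calls. Of 5593 tested genes outside the CNV regions and the mitochondrial genome, 559 were higher in ODIRA_A and 654 lower, with a median log2 difference of 0.01. The shares of 9.99% and 11.7% are near the 9.99% and 12.4% of all tested genes. For the 559 higher genes both ODIRA_A libraries lay above all 6 others in 44.7%, and both ODIRA_B libraries lay below all 6 others in 39.5%. For the 654 lower genes the shares were 48.0% with ODIRA_A below all others and 53.2% with ODIRA_B above all others. These genes were selected for a difference between ODIRA_A and ODIRA_B, and in all of them the libraries of both strains did not overlap. That choice partly sets the shares, and the same shares over all tested genes were not computed. Which strain stood apart is therefore not concluded from them.

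Apart from the mitochondrial genome, described further on, the genes furthest down in ODIRA_A outside the CNV were SRD1, RTA1, NCW2, PHO89, YNR064C, MNC1, SED1, ARO10, HBN1 and BAG7, at -6.06 to -3.88. SRD1, a gene of rRNA processing that the study lists among the known deletions of the ancestor, had 0.893 and 1.06 CPM in ODIRA_A (7 and 10 RPFs) and 70.8 and 62.9 CPM in ODIRA_B (255 and 225 RPFs). Trans (2.99 and 4.25 CPM) and ComQuad (5.15 and 3.49 CPM) were near ODIRA_A. How reads arise on a gene listed as deleted was not tested. PHO89, a sodium and phosphate cotransporter, had 4.46 and 4.35 CPM in ODIRA_A and 126 and 165 CPM in ODIRA_B (-5.04), with Trans and ComQuad between 5.23 and 11.2 CPM. ARO10, the phenylpyruvate decarboxylase of the Ehrlich pathway, had 9.82 and 13.7 CPM in ODIRA_A and 191 and 253 CPM in ODIRA_B (-4.23), and here too Trans (18.6 and 14.2 CPM) and ComQuad (15.3 and 12.7 CPM) were near ODIRA_A. In these 3 genes it was ODIRA_B that differed from the other 3 strains.

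The genes furthest up in ODIRA_A were RRT12, NCA3, SIP18, RCK1, NQM1, GRE1, YBR190W, ICS2, GFD2 and LPX2, at 3.24 to 2.04. NCA3, a cell wall protein of the SUN family like UTH1, had 88.9 and 73.4 CPM in ODIRA_A and 9.43 and 10.6 CPM in ODIRA_B (3.01, BH adj. P-value 2.3e-06). Trans was higher still (202 and 234 CPM), and ComQuad was near ODIRA_B (13.1 and 13.7 CPM). NQM1, a transaldolase expressed on entry into stationary phase, had 279 and 369.9 CPM in ODIRA_A and 83.5 and 65.4 CPM in ODIRA_B (2.12). RRT12, a subtilisin of the spore wall, had 6.63 and 6.79 CPM in ODIRA_A against 0 and 1.4 CPM in ODIRA_B, and did not pass without ODIRA_B replicate 1 (BH adj. P-value 0.055). RCK1, a protein kinase of the oxidative stress response, did not pass without ODIRA_A replicate 1 (0.11), ODIRA_A replicate 2 (0.092) or ODIRA_B replicate 2 (0.19).

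**Figure D2:**
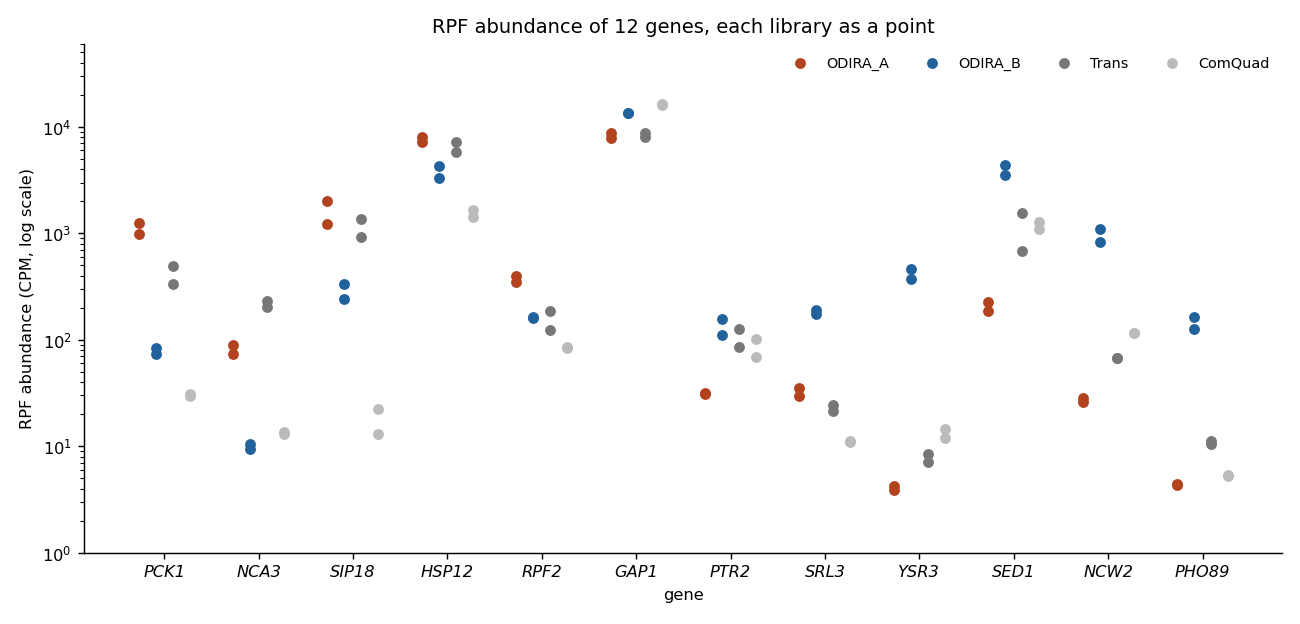
RPF abundance (CPM, log scale) of 12 genes in each library, with ODIRA_A, ODIRA_B, Trans and ComQuad from left to right within a gene and 1 point per library. The points of ODIRA_A lie above those of ODIRA_B for PCK1, NCA3, SIP18, HSP12 and RPF2 and below them for GAP1, PTR2, SRL3, YSR3, SED1, NCW2 and PHO89.

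By function, several lists of stress genes were shifted upward in ODIRA_A. All gene lists were chosen with earlier results of these data known, so their counts describe and do not test. Genes of glycogen and trehalose, reserves that also build up under stress, had 3 of 16 higher and 0 lower, with a median of 0.22. Small proteins of early stress and stationary phase, many of them targets of the zinc finger activators Msn2 and Msn4, had 14 of 16 members higher and 0 lower, with a median of 1.09 and all 4 leave-one-out counts between 10 and 13. SIP18, a hydrophilin that protects against desiccation, had 1232 and 2011 CPM in ODIRA_A and 337 and 241 CPM in ODIRA_B (2.49, BH adj. P-value 6.1e-04). HSP12, a membrane-stabilising stress protein, had 7169.7 and 8076 CPM in ODIRA_A and 4322 and 3330.3 CPM in ODIRA_B (0.99). ODIRA_B was not the lowest strain for these genes: ComQuad had 13.1 and 22.3 CPM of SIP18 and 1424 and 1662 CPM of HSP12. GRE1 (2.12) passed in the fit of 8 libraries and not with only the 4 libraries of the pair (BH adj. P-value 0.095).

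AGGGG, the element that Msn2 and Msn4 bind, was found on either strand in 11 of these 16 promoters (68.8%), in 29.0% of the genes higher in ODIRA_A outside the CNV, in 22.0% of those lower and in 21.6% of all promoters. The motif was not confined to lists that were higher. Promoters of the COS family (10 of 11) and of the vacuolar proteases (6 of 7) also held it, and these lists had 0 members higher. Among the peroxidases, catalases and dismutases, which had 0 members lower, 9 of 15 promoters held it. A match describes the letters and does not show that a factor binds there. FMP16, a mitochondrial stress protein, had 643 and 742 CPM in ODIRA_A and 240.0 and 204 CPM in ODIRA_B (1.64, BH adj. P-value 1.9e-04). Its reference window (chr4:588330-588629, minus strand) has the reverse complement of AGGGG 201 bases before the ATG, in capitals.
FMP16: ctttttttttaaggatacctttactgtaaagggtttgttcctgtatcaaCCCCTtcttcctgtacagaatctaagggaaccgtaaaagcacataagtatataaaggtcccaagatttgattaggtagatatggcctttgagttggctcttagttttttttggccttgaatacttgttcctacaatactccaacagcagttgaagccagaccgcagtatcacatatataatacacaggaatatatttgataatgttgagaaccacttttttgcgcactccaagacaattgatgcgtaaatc

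Chaperones, which fold new or damaged proteins, were higher for 16 of 25 members and lower for 1 (HSP30, -1.18), with a median of 0.56. SSE2, a nucleotide exchange factor of Hsp70, had 404 and 456 CPM in ODIRA_A and 228 and 183 CPM in ODIRA_B (1.07). SSA3, a stress-induced Hsp70, had 311 and 448 CPM in ODIRA_A and 153 and 78.0 CPM in ODIRA_B (1.72), and did not pass with only the 4 libraries (BH adj. P-value 0.10). The count of 16 depended on single libraries, at 7 without ODIRA_A replicate 2 and 3 without ODIRA_B replicate 2. HSP30 did not pass without ODIRA_A replicate 2 (0.11) or ODIRA_B replicate 1 (0.15). Of 15 peroxidases, catalases and dismutases 5 were higher and 0 lower, with a median of 0.36, and 3 and 2 were higher without ODIRA_A replicate 2 and without ODIRA_B replicate 2. CTT1, the cytosolic catalase T, had 1283 and 1648 CPM in ODIRA_A and 549 and 408 CPM in ODIRA_B (1.61, BH adj. P-value 1.9e-04).

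Ribosome assembly moved in the same direction as stress. Of 88 ribosome biogenesis factors 36 were higher in ODIRA_A and 0 lower, with a median of 0.45. NOP58, a core protein of box C/D snoRNPs, had 259 and 196 CPM in ODIRA_A and 105 and 99.8 CPM in ODIRA_B (1.16, BH adj. P-value 6.3e-04). The number higher was 19 without ODIRA_A replicate 1, 14 without ODIRA_B replicate 1 and 15 without ODIRA_B replicate 2. Of 138 cytosolic ribosomal protein genes, many of them near-identical pairs, 32 were higher and 0 lower, with a median of 0.24. Leaving out ODIRA_A replicate 1, ODIRA_A replicate 2, ODIRA_B replicate 1 or ODIRA_B replicate 2 in turn brought that count to 13, 19, 9 and 5. Proteasome subunits had 0 higher and 4 lower of 33, a share near the 12.4% of all tested genes, with a median of -0.18, and 1 was lower without ODIRA_A replicate 1 and 0 without each of the other libraries.

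Cell wall genes were lower in ODIRA_A. Of 26 mannoproteins and wall remodelling enzymes 14 were lower and 2 higher, with a median of -0.79, and without ODIRA_A replicate 2, ODIRA_B replicate 1 or ODIRA_B replicate 2 the number lower was 8, 9 and 8. SED1, an abundant GPI-anchored wall glycoprotein, had 185 and 229 CPM in ODIRA_A and 3529.7 and 4346 CPM in ODIRA_B, a 19-fold difference (-4.25, BH adj. P-value 5.9e-05). HSP150, a wall protein with internal repeats, had 1021 and 871 CPM in ODIRA_A and 7301 and 7809 CPM in ODIRA_B (-3.00), and its relative PIR3 had 36.7 and 26.3 CPM in ODIRA_A and 195 and 198 CPM in ODIRA_B (-2.65). NCW2, a GPI-anchored protein of the wall that is not on the list, had 28.6 and 25.9 CPM in ODIRA_A and 827 and 1092 CPM in ODIRA_B (-5.14, BH adj. P-value 5.2e-08). The 2 members higher were NCA3 and YGP1 (0.88), and YGP1 did not pass without ODIRA_A replicate 2 (0.062) or ODIRA_B replicate 2 (0.082).

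Genes of daughter-cell separation, the step that degrades the septum after division, had 9 of 11 members lower and 0 higher, with a median of -0.92. DSE3 had 13.9 and 15.8 CPM in ODIRA_A and 45.8 and 36.6 CPM in ODIRA_B (-1.47), EGT2, a GPI-anchored protein of septum removal, differed by -1.40, and ASH1, a daughter-specific repressor, by -1.39. ComQuad exceeded ODIRA_B in all 3, for example with 61.4 and 61.8 CPM of DSE3. Ssd1 is an RNA-binding protein that holds mRNAs of wall proteins in a translationally repressed state. A list of its mRNA targets shares CTS1 and DSE2 with that of daughter-cell separation, so their counts are not independent. It also holds UTH1 of the shared segment and SSD1 itself. Of its 10 genes 7 were lower and 1 higher (CIC1, 0.71), with a median of -0.87. The number lower was 2 without ODIRA_A replicate 2, 3 without ODIRA_B replicate 1 and 2 without ODIRA_B replicate 2. SSD1 had 216 and 236 CPM in ODIRA_A and 340.2 and 362 CPM in ODIRA_B (-0.63, BH adj. P-value 0.012), and did not pass in any of the 4 fits with a library left out (0.051 to 0.11), nor did CIC1 (0.12 to 0.19). TOS1, a wall protein, passed in all 4, with 251 and 201 CPM in ODIRA_A and 554 and 568 CPM in ODIRA_B (-1.31). The a-specific genes, which MATa cells need for mating, had 4 of 7 lower with each library left out in turn, and a median of -1.29. MFA1, an a-factor precursor, had 123 and 67.4 CPM in ODIRA_A and 493 and 370.0 CPM in ODIRA_B (-2.18), and the pheromone receptor STE2 had 76.4 and 63.6 CPM in ODIRA_A and 178 and 165 CPM in ODIRA_B (-1.29). Medians below 0 were not particular to a-specific genes. The alpha-specific genes had 1 of 3 tested lower and 0 higher (median -0.63). Pheromone response had 1 of 18 lower and 0 higher (median -0.31).

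**Figure D3:**
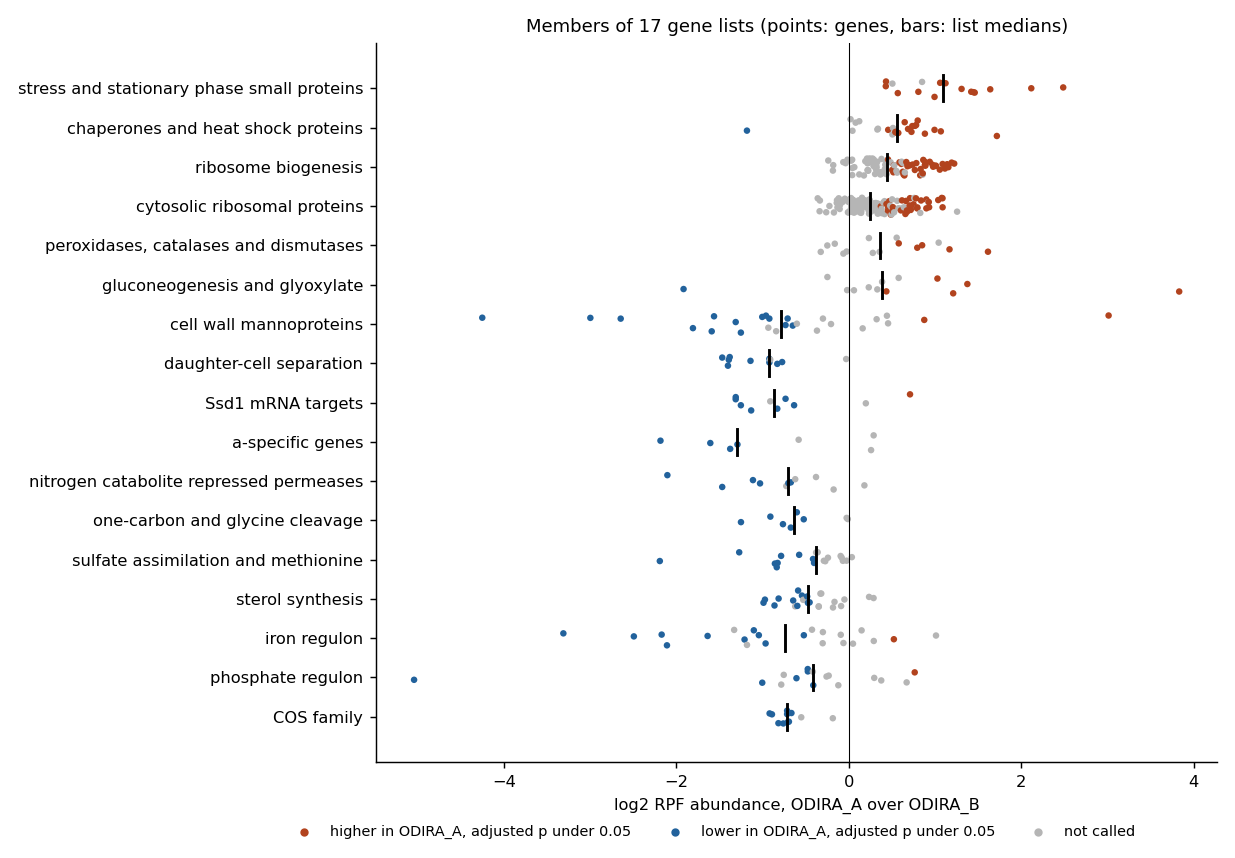
Log2 RPF difference (ODIRA_A over ODIRA_B) of each tested member of 17 gene lists, in red where higher and in blue where lower in ODIRA_A at a BH adj. P-value under 0.05, with black bars at the list medians. The upper 6 lists, from stress proteins to gluconeogenesis, have medians above 0 (0.24 to 1.09), and the lower 11 have medians below 0 (-1.29 to -0.38).

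Some nitrogen permeases were lower in ODIRA_A. Of 11 permeases under nitrogen catabolite repression, a control by which GATA factors act when good nitrogen sources run short, 6 were lower and 0 higher, with a median of -0.70. The 6 include GAP1, whose value is the median, and PTR2, both of the shared segment and described above. The 4 others were DAL5, DUR3, OPT2 (-1.03) and MEP2 (-0.67), and the median without the CNV members was -0.67. OPT2 and MEP2 each lost the call with a library left out (highest BH adj. P-value 0.053 and 0.081). DAL5, an allantoate permease, had 906 and 767 CPM in ODIRA_A and 2297 and 2332 CPM in ODIRA_B (-1.47, BH adj. P-value 6.4e-05). DUR3, a urea transporter, had 106 and 97.4 CPM in ODIRA_A and 241 and 198 CPM in ODIRA_B (-1.11). Among 14 tested members of a list of other amino acid permeases, which includes those induced by external amino acids, 5 were lower and 1 higher, with a median of -0.37. DIP5, a permease for glutamate and aspartate, had 218 and 212 CPM in ODIRA_A and 1402 and 1438 CPM in ODIRA_B (-2.72, BH adj. P-value 2.2e-06), and AGP1 differed by -2.45. HIP1, the histidine permease, was the one higher (1.01), and lost its call without ODIRA_B replicate 2 (0.052).

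Use of proline and GABA had 5 of 6 genes lower and 1 higher (UGA2, 0.65), with a median of -0.52, and 2 lower without ODIRA_A replicate 2, ODIRA_B replicate 1 or ODIRA_B replicate 2. PUT1, proline oxidase, had 757 and 762 CPM in ODIRA_A and 2760.5 and 2873 CPM in ODIRA_B (-1.89, BH adj. P-value 1.3e-05). The genes of allantoin and urea use had 0 of 8 higher and 1 lower, DAL7, a malate synthase, with 104 and 108 CPM in ODIRA_A and 216 and 217 CPM in ODIRA_B (-1.02), although 6 of the 8 promoters hold GATAAG, the site of GATA factors. Of these 8 genes 6 lie on chromosome IX, whose median difference was 0.35. This site was found in 10.6% of promoters of genes higher outside the CNV, 22.0% of genes lower and 14.5% of all promoters. The windows of PUT1 (chr12:424936-425235, plus strand) and DAL7 (chr9:414630-414929, minus strand) show it in capitals on either strand, and the DAL7 window also has CCAAT.
PUT1: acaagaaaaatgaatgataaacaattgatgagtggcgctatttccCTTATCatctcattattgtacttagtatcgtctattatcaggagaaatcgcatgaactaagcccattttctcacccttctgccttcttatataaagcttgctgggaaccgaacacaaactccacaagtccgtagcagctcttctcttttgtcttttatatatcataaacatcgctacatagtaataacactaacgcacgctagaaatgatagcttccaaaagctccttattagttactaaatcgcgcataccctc
DAL7: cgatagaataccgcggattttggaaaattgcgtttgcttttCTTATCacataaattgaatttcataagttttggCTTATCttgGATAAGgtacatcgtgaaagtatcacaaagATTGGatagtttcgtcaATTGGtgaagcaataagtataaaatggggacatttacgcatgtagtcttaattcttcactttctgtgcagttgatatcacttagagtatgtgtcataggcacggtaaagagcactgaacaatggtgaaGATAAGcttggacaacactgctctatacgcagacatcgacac

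The ASP3 copies on chromosome XII, which encode the asparaginase of the cell wall induced by nitrogen starvation, had identical counts in every library, so their reads were counted at each copy. Each copy had 3601 and 2758 CPM in ODIRA_A and 7925 and 7491 CPM in ODIRA_B (ASP3-1, -1.28, BH adj. P-value 3.7e-04). The study names the ASP region among those with a known expansion of copy number. With YLR154C-H (at most 14 RPFs a library) these 4 copies formed the 1 run of 5 neighbouring genes outside the CNV called in 1 direction, in which the 4 copies are a single measurement.

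Other genes of nutrient supply were lower in ODIRA_A to differing degrees. Sulfate assimilation and methionine had 9 of 19 lower and 0 higher (median -0.38). MUP1, the high-affinity methionine permease, had 102 and 94.9 CPM in ODIRA_A and 423 and 478 CPM in ODIRA_B (-2.19, BH adj. P-value 2.2e-06). Arginine synthesis had 4 of 10 lower and 0 higher (median -0.63), led by ARG5,6, with 275 and 264 CPM in ODIRA_A and 765 and 815 CPM in ODIRA_B (-1.55). Sterol synthesis had 11 of 23 lower and 0 higher (median -0.47), with 7, 6, 5 and 3 lower as ODIRA_A replicate 1, ODIRA_A replicate 2, ODIRA_B replicate 1 and ODIRA_B replicate 2 were left out. ERG26, a C-3 sterol dehydrogenase, had 86.6 and 76.4 CPM in ODIRA_A and 158 and 165 CPM in ODIRA_B (-0.99). The iron regulon had 10 of 22 lower and 1 higher (median -0.74), with 5 lower without ODIRA_A replicate 2 or without ODIRA_B replicate 2. ENB1, a siderophore transporter, had 2.3 and 1.7 CPM in ODIRA_A and 16.6 and 22.9 CPM in ODIRA_B (-3.31), on counts of 16 to 82 RPFs a library.

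The phosphate regulon had 6 of 16 lower and 1 higher (median -0.41), and 3, 3, 2 and 3 lower as each library was left out. Unlike PHO89, PHO84, the main high-affinity phosphate transporter, had 464 and 354 CPM in ODIRA_A and 509 and 452 CPM in ODIRA_B (-0.23, BH adj. P-value 0.42). PHO8, the vacuolar alkaline phosphatase, had 229.9 and 230.0 CPM in ODIRA_A and 482 and 440.1 CPM in ODIRA_B (-1.0). Of 7 vacuolar proteases 5 were lower and 0 higher (median -0.58), and 3 without ODIRA_A replicate 1, ODIRA_B replicate 1 or ODIRA_B replicate 2. PRB1, protease B, had 1454 and 1639 CPM in ODIRA_A and 3458 and 3464 CPM in ODIRA_B (-1.16). The COS family of near-identical subtelomeric membrane proteins had 9 of 11 lower and 0 higher (median -0.72), with 2 lower without ODIRA_A replicate 1, 3 without either ODIRA_B replicate, and reads that cannot be assigned to single members with certainty.

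In carbon metabolism PCK1 was the extreme of a short list. Of 13 genes of gluconeogenesis and the glyoxylate cycle 5 were higher in ODIRA_A and 1 lower, with a median of 0.39 and of 0.36 without PCK1. SFC1, the mitochondrial succinate and fumarate carrier, had 20.3 and 22.3 CPM in ODIRA_A and 8.88 and 9.5 CPM in ODIRA_B (1.21, BH adj. P-value 3.1e-03). FBP1, the phosphatase that follows PCK1 in the pathway, had 4.85 and 5.3 CPM in ODIRA_A and 2.22 and 1.68 CPM in ODIRA_B (1.38), which did not pass with any library left out (BH adj. P-value 0.073 to 0.21). The number higher was 3 without ODIRA_A replicate 1 and 2 without each of the other libraries. HXT2, a hexose transporter of intermediate affinity, had 188 and 130.4 CPM in ODIRA_A and 795 and 966 CPM in ODIRA_B (-2.47). HXT5, a transporter of slow-growing cells, had 1318 and 1290.2 CPM in ODIRA_A and 741 and 709 CPM in ODIRA_B (0.85), and HXK2, the main hexokinase, had 599.9 and 447 CPM in ODIRA_A and 1052 and 1067 CPM in ODIRA_B (-1.02). HXK2 ran against most of its list: of 20 genes of glycolysis and fermentation 5 were higher and 3 lower, with a median of 0.28, and 2, 3, 2 and 0 were higher with each library left out.

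Genes encoded by the mitochondrial genome differed most. All 21 tested were lower in ODIRA_A than in ODIRA_B, with a median of -6.57. This fitted median rests on 0 to 8 RPFs a gene in the ODIRA_A libraries, and the median over the pairs of libraries was -4.37 to -3.95 with 0.5 CPM added. These ODIRA_A counts lie below the RPF minimum for testing, so each gene passed the filter through its ODIRA_B counts. The count of 21 of 21 is therefore partly set by the filter and is no separate evidence of a shared direction. With no filter on low counts, 22 mitochondrially encoded genes were lower. The totals over all 28 genes, given below, do not depend on the filter. COX1, a core subunit of cytochrome c oxidase, had 4 and 2 RPFs in ODIRA_A and 118 and 132 RPFs in ODIRA_B (-6.57, upper 95% bound -5.45). In CPM these were 0.51 and 0.212 in ODIRA_A and 32.7 and 36.9 in ODIRA_B, with 0.748 and 0.266 in Trans and 0 and 0.249 in ComQuad, so ODIRA_B alone was high. ATP6, a subunit of the ATP synthase, had 1 and 1 RPFs in ODIRA_A and 49 and 57 RPFs in ODIRA_B, and the intron-encoded genes overlap COX1 and COB, so they share reads with them. Together the 28 genes gave 39 and 18 RPFs in ODIRA_A and 1317 and 1618 RPFs in ODIRA_B, at most 434.6 in CPM of CDS RPFs, so this signal is small in absolute terms. Mitochondrial RNAs that are not translated ran the same way. The small-subunit rRNA had 19 and 13 reads in ODIRA_A and 2191 and 377 in ODIRA_B. The RNase P RNA RPM1 had 1 and 0 in ODIRA_A and 53 and 53 in ODIRA_B. Whether the reads on the coding genes come from translating mitochondrial ribosomes was not tested.

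The nuclear genes that work with them differed far less. Of 23 nuclear genes of the respiratory chain 1 was higher and 1 lower, with a median of -0.07. The pair were the external NADH dehydrogenases, NDE2 with 132 and 147 CPM in ODIRA_A and 85.2 and 70.4 CPM in ODIRA_B (0.84), and NDE1 with 164 and 154 CPM in ODIRA_A and 269.7 and 271 CPM in ODIRA_B (-0.76). The 13 nuclear ATP synthase genes had a median of -0.08, and 38 factors of mitochondrial gene expression had a median of 0.16 with 1 higher and 0 lower. The mitochondrial ribosomal proteins other than MRPL13 had 10 of 71 higher, not far from the 9.99% of all tested genes, and 0 lower (median 0.22). The whole list had 6, 1, 3 and 0 higher with each library left out. Protein import had 7 of 31 higher and 0 lower (median 0.33), with 3 without ODIRA_A replicate 2, 2 without ODIRA_B replicate 1 and 3 without ODIRA_B replicate 2. PAM18, a subunit of the import motor, had 100.1 and 76.7 CPM in ODIRA_A and 40.2 and 40.8 CPM in ODIRA_B (1.12).

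Targets of the retrograde pathway, by which mitochondrial dysfunction raises nuclear genes such as CIT2, had 5 of 7 lower and 0 higher in ODIRA_A, with a median of -0.97. CIT2, the peroxisomal citrate synthase, had 51.0 and 62.6 CPM in ODIRA_A and 209.5 and 219.9 CPM in ODIRA_B (-1.92, BH adj. P-value 2.5e-04). DLD3, a lactate dehydrogenase of the same pathway, had 115 and 108 CPM in ODIRA_A and 226 and 222 CPM in ODIRA_B (-1.0). The TCA cycle had 7 of 16 lower and 0 higher (median -0.33), with 2 without ODIRA_A replicate 2 and 3 without either ODIRA_B replicate. IDH1, a subunit of isocitrate dehydrogenase, had 87.6 and 78.2 CPM in ODIRA_A and 188 and 186 CPM in ODIRA_B (-1.17). The TCA and retrograde lists share members, IDH1 and IDH2 among them, so their counts are not independent.

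**Figure D4:**
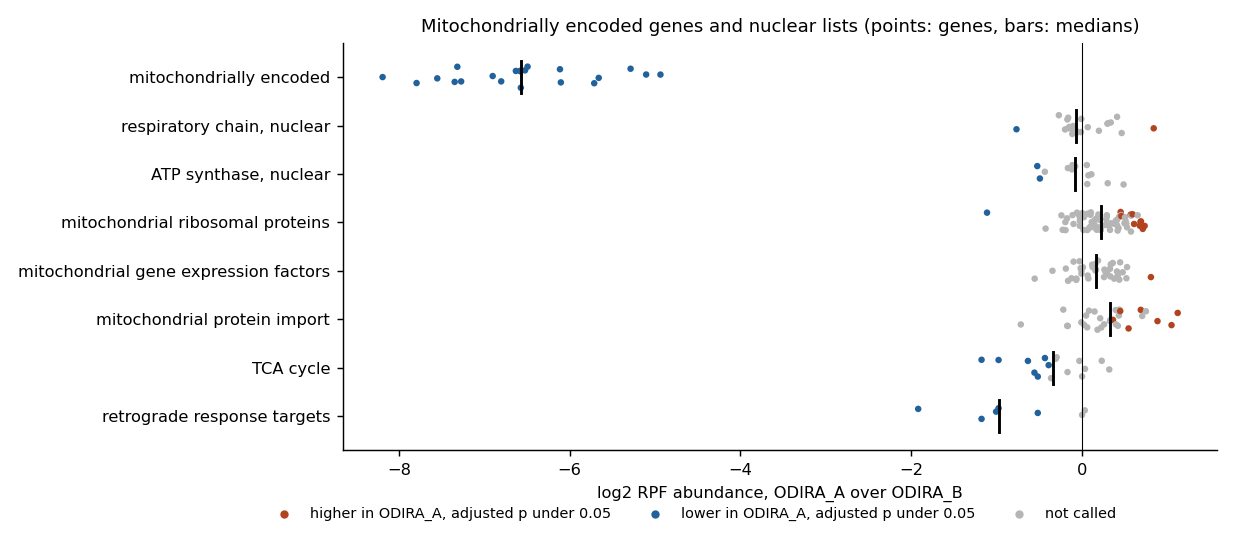
Log2 RPF difference (ODIRA_A over ODIRA_B) of each tested mitochondrially encoded gene and of each tested member of 7 nuclear lists of mitochondrial function, in red where higher, in blue where lower in ODIRA_A and in grey where not called, with black bars at the medians. The 21 mitochondrially encoded genes lie between -8.19 and -4.94, and the 7 nuclear medians lie between -0.97 and 0.33.

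A last difference followed position and not function. Chromosome IX, which is not among the CNVs the study describes for these strains, had 55 of 207 tested genes higher in ODIRA_A (26.6%) and 9 lower, 167 of the 207 had a positive difference, and the median log2 difference was 0.35. The medians of the other 15 nuclear chromosomes lay between -0.11 and 0.05. In each of the 4 pairings of a library of ODIRA_A with one of ODIRA_B the chromosome IX median was between 0.309 and 0.340. Relative to the mean of the 8 libraries the median over chromosome IX genes was 0.098 and 0.115 in ODIRA_A, -0.221 and -0.233 in ODIRA_B, 0.084 and 0.146 in Trans, and 0.035 and 0.036 in ComQuad, so ODIRA_B was the strain that lay apart. The shift was smaller than the copy ratios seen on chromosome XI. Whether the DNA content of chromosome IX differs between the cultures was not tested.

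The shift ran along the whole chromosome. In 6 successive groups of 34 or 35 genes the median was 0.18, 0.34, 0.56, 0.40, 0.46 and 0.26, and 19 of 35 genes of the third group were higher. GPP1, a glycerol-3-phosphate phosphatase, had 2107 and 1257 CPM in ODIRA_A and 764 and 758 CPM in ODIRA_B (1.14), and MGA2, an activator of the fatty acid desaturase gene, had 82.3 and 87.7 CPM in ODIRA_A and 32.5 and 45.0 CPM in ODIRA_B (1.13). MAM33, a protein of the mitochondrial matrix, had 99.7 and 128 CPM in ODIRA_A and 53.6 and 52.5 CPM in ODIRA_B (1.11, BH adj. P-value 8.2e-04). These 3 are among the largest rises on the chromosome and were singled out after their values were seen. The 9 genes lower included DAL7, BAR1 and SOA1, so single genes still moved against the chromosome. The number higher on chromosome IX was 19 without ODIRA_A replicate 2, 21 without ODIRA_B replicate 1 and 13 without ODIRA_B replicate 2, the number lower was 5 without either ODIRA_B replicate, and the median stayed between 0.31 and 0.37.

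**Figure D5:**
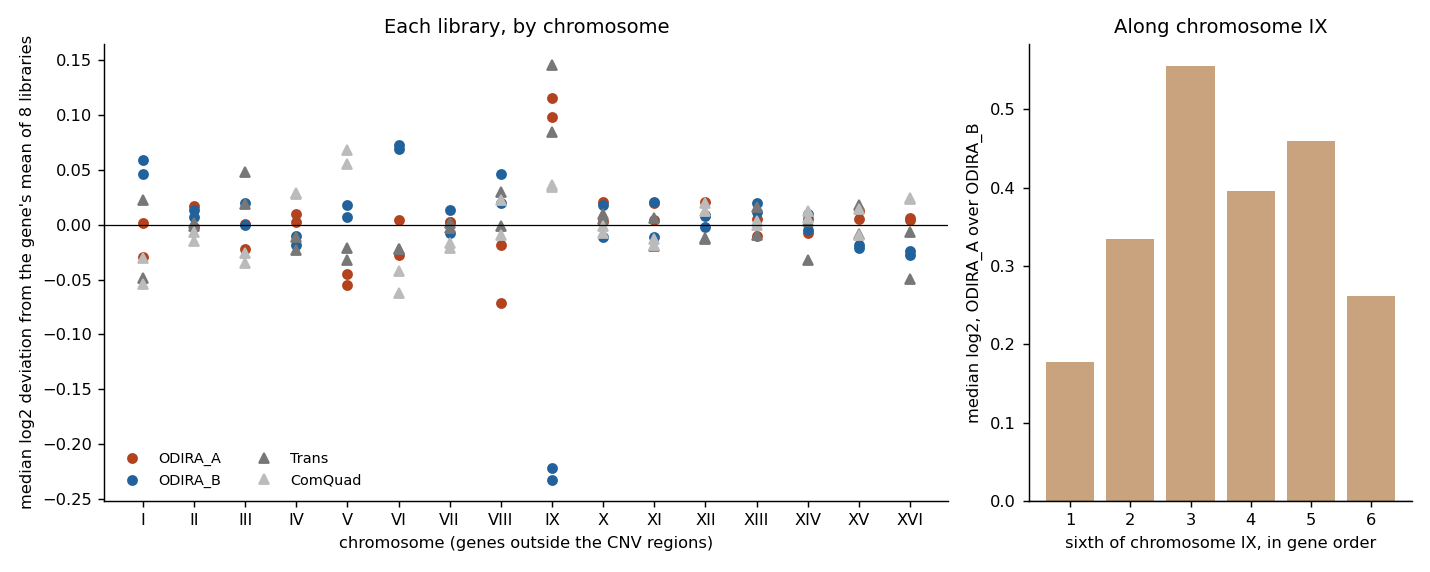
Left, median log2 deviation of each library from the mean of 8 libraries over the genes of each nuclear chromosome outside the CNV regions, 1 point per library. Right, median log2 RPF difference (ODIRA_A over ODIRA_B) in 6 successive groups of chromosome IX genes; both ODIRA_B libraries lie at -0.221 and -0.233 on chromosome IX, and the 6 medians run from 0.18 to 0.56.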

How the data were processed

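RPF libraries of 4 evolved strains, 2 replicates each, were used. The deposited values are unnormalized whole-number counts of RPFs per feature of the R64-1-1 annotation. Before deposit the authors size-selected the fragments, aligned them with STAR after filtering against non-coding RNA, and counted reads of the gene's own strand with bedtools. How reads with several matches were handled is not given in the sources used here. Counts on CDS rows were summed per protein-coding gene. A gene was tested if 2 or more libraries held 10 or more of its RPFs, which left 5725. The test was edgeR's quasi-likelihood F test (version 4.0.16 under R 4.3.3, robust, TMM scaling, BH over every tested gene), fitted once to 8 libraries with 4 residual degrees of freedom. The common biological coefficient of variation was 0.123. On simulated counts of ODIRA_A against ODIRA_B over 5725 genes, 42 of 50 genes changed 2-fold and 17 of 50 changed 1.5-fold were recovered, and 12 of 167 calls were false. Lists are described by counts of calls and medians. Genes named were those of the strain-specific segments and their flanks, called genes of the shared segment, the 10 largest rises and 10 largest falls outside the CNV and the mitochondrial genome with at least 50 RPFs in each library of the higher strain, the 3 largest called differences of a list and members of lists of 12 or fewer, and the genes with missense variants. Other genes were named after their values were seen. The members and lists were chosen with earlier results of these data known.

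In 6571 windows from 250 bases before to 50 after the start codon, 5 motifs were searched on both strands: TGACTC of Bas1 and Gcn4, GATAAG of the GATA factors, AGGGG of Msn2 and Msn4, CACGTG of Pho4 and Cbf1, and CCAAT of the Hap complex. None of them contains another. The alternatives tried were DESeq2 1.42.0, RLE scaling, TMM outside the CNV, another and no filter on low counts, only the 4 libraries, a replicate block, and each library left out.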

Additional observations from a re-analysis of the deposited data

Results flagged for a closer look

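Features outside protein-coding genes entered no fit above. They were looked at because some of them carried a signal in data not used there. Among those with at least 50 RPFs in 1 library, the feature of each class with the largest difference, at least 2-fold and without overlap between the libraries, is given here, with log2 differences of CPM (relative to CDS RPFs) after adding 0.5. The mitochondrial small-subunit rRNA had 19 and 13 RPFs in ODIRA_A and 2191 and 377 RPFs in ODIRA_B (log2 difference -7.078). The mitochondrial RNase P RNA RPM1 had 1 and 0 RPFs in ODIRA_A and 53 and 53 RPFs in ODIRA_B (-4.672). The pseudogene YLL017W had 120 and 121 RPFs in ODIRA_A and 13 and 19 RPFs in ODIRA_B (1.671). The Ty element YPL257W-B had 17 and 14 RPFs in ODIRA_A and 108 and 103 RPFs in ODIRA_B (-3.564), with near-identical copies that may share its reads. The snRNA snR19 had 76 and 16 RPFs in ODIRA_A and 109 and 49 RPFs in ODIRA_B (-1.747), and the tRNA tN(GUU)P had 115 and 63 RPFs in ODIRA_A and 98 and 190 RPFs in ODIRA_B (-1.757). These RNA classes were filtered during alignment, so the rRNA, snRNA and tRNA values count residual reads. In 3 classes more features ran lower than higher in ODIRA_A. Without overlap between the libraries, 0 of 13 rRNA features were higher and 13 lower (median -1.93), and 0 of 18 tRNA features higher and 10 lower (median -1.52). Of 70 transposable elements 25 were higher and 43 lower (median -1.31). Of 9 ncRNA features 4 were higher and 3 lower (median 0.14). Repeated copies may share reads, so features of a class are not separate measurements. The share without overlap over all features was not computed. Over all rRNA features the libraries held 5068 and 1828 RPFs in ODIRA_A and 6843 and 5558 RPFs in ODIRA_B. No test was run on these differences.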

How the results depend on the processing

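With a replicate block the calls numbered 562 higher and 699 lower, and the median over chromosome IX was 0.35. The same numbers mark no stated shared culture or day, and the deviations of same-numbered libraries of ODIRA_A and ODIRA_B correlated at 0.158. DESeq2 called 560 higher and 699 lower, and only the 4 libraries 784 and 897, with 14 higher in the shared segment. The mitochondrial median was -6.86 with DESeq2 and -6.29 with no filter on low counts, and could not be given with at least 10 RPFs in every library. Leaving out 1 library gave 168 to 379 genes higher and 344 to 541 lower, and medians of -1.61 to -1.59 in the segment amplified only in ODIRA_B, 1.28 to 1.44 in the one amplified only in ODIRA_A and -7.25 to -5.95 over mitochondrial genes. In the shared segment it gave 2 to 9 genes higher, 5 to 11 lower and a median of -0.0156 to 0.0434, and on chromosome IX 13 to 39 higher, 5 to 8 lower and a median of 0.31 to 0.37. Small medians changed sign: the zinc regulon with at least 10 RPFs in every library (0.21), chromosome XIII with no filter (0.0081), and with 1 library left out the nuclear ATP synthase (-0.11 to 0.0651), the cleavage and polyadenylation factor (-0.15 to 0.0116), chromosome III (-0.0653 to 0.0328) and chromosome XIII (-0.0155 to 0.0098). The cause was not tested. With 2 libraries a strain, 34% of simulated 1.5-fold differences were recovered, so smaller differences may have been missed.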
